A study of Mus musculus with 16 samples.

Results

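The genes described here are 41 components of the extracellular matrix and its receptors, out of 52636 gene identifiers counted in the series. They were chosen by name, through the mouse symbol of each Ensembl identifier, and comprise 5 laminin chains, 2 chains of collagen IV, 6 other components of basement membranes, 5 genes of the interstitial matrix, 6 integrin alpha chains, 4 integrin beta chains, dystroglycan, 7 enzymes that modify collagen, 2 cross-linking oxidases and 3 genes of matrix proteolysis. The series measured RNA from a mouse embryonic stem cell line, CRAFR26, that carries a c-RAF kinase construct switched on by 4-hydroxytamoxifen (4OHT). Active c-RAF passes its signal through the kinase MEK to the kinase ERK, and the experiment followed the transcriptional response to ERK and its reversal. All 16 cultures, controls included, were held for 48 h in 250 nM of the FGF receptor inhibitor PD17 after removal of the MEK inhibitor used in routine culture. The 0h group received no 4OHT, the 2h and 4h groups received 250 nM 4OHT for 2 h or 4 h, and the rev group received 4OHT for 4 h with a MEK inhibitor for 2 h after it. Each group held 4 libraries, 2 from clone 4 and 2 from clone 8 of the line. The promoter that drives the construct is not given in the sources used here, no label names a vehicle for the 0h group, and no group was grown for the time of the rev group without the MEK inhibitor, so the effect of that inhibitor and of the extra hours in culture cannot be told apart. No label states that the replicates of a clone were separate cultures from the start, so p-values measure the spread between these libraries, which may in part be technical.

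A basement membrane is a sheet of matrix laid down next to cells. Laminins, trimers of an alpha, a beta and a gamma chain, form one network in it, collagen IV forms another, and nidogens and the proteoglycans perlecan and agrin connect them. Integrins, pairs of an alpha and a beta chain, and dystroglycan anchor cells to it. In the early mouse embryo laminin and integrin beta 1 are known to be needed for the basement membrane under the epiblast, the tissue that embryonic stem cells resemble.

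Depth differed widely between libraries. Total counts ranged from 2172651 to 12680303, and 8 gene models, such as the mitochondrial ribosomal RNAs mt-Rnr1 and mt-Rnr2, took between 42% and 80.4% of them, with the highest share in clone 8 replicate 2 of rev. The mean share was 60.7 ± 2.39% at 0h, 58.5 ± 4.05% at 2h, 54.1 ± 9.31% at 4h, then 65.9 ± 10.6% in rev (SD, n = 4 each), and with this share as a covariate 8 of the 41 calls of members described here were lost. Clone 8 replicate 2 of rev stood apart, with a scaling factor of 0.463 where the highest of the 16 was 1.47; without it 5 members were higher and 6 lower in rev than at 4h, against 5 and 5 with it, and 7 were higher and 3 lower in rev than at 0h, against 7 and 4. Levels are given as CPM, counts scaled by library size and composition to a common total, and as CPM per kb of exon when genes are compared with each other. The floor of 3 counts lay between 0.213 and 1.35 CPM, and it covers counting error only. All 10 embryonic stem cell markers examined passed the filter on low counts, with a summed level of 1780 to 2480 CPM; single markers moved both ways, with 6 higher and 3 lower at 4h than at 0h (Utf1 at 2.01, Nanog at -0.68 on the log2 scale), beside 17.2% and 16.8% of all tested genes, and 2 and 0 with library size alone. The summed level of 10 primitive endoderm markers, which would mark a cell type rich in basement membrane, was 4.51 to 9.47 CPM and 1 of the 10 passed. That of 10 fibroblast markers was 12.4 to 23.8 CPM, 4 of 10 passed, and Postn, Dcn and Prrx1 were at 0 in every library. Of the 4, Twist1 was higher and Pdgfrb lower at 2h and 4h than at 0h. The ERK target genes Dusp6, Egr1, Etv4 and Dusp4 were all higher at 2h and 4h than at 0h and all lower in rev than at 4h. Dusp6, a phosphatase that acts on ERK, was at 1.25 ± 0.448 CPM at 0h, 55.2 ± 10.7 at 4h and 1.59 ± 0.667 in rev (SD, n = 4 each).

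Before induction the members spanned a wide range of levels. Of the 41, 38 passed the filter, and 26 of these lay above the median level per kb of all 12215 genes that passed. At 0h fibronectin (Fn1), a matrix glycoprotein bound by several integrins, had the highest level at 84.7 ± 3.56 CPM per kb, followed by P4hb, a subunit of prolyl 4-hydroxylase, at 70.4 ± 5.65 (SD, n = 4 each). The nidogens Nid1 and Nid2, the laminin gamma 1 chain Lamc1, the secreted collagen-binding protein Sparc and the integrin beta 1 chain Itgb1 followed at 24.8 to 40.7 CPM per kb. Among the laminin chains the order at 0h was Lamc1 at 38.1 ± 3.68, Lama5 at 13.8 ± 0.585, Lama1 at 5.14 ± 1.17, Lamb2 at 4.94 ± 0.225 and Lamb1 at 3.18 ± 1.09 CPM per kb. The range of Lama1 overlapped with those of Lamb2 and Lamb1, so its place among them is not set beyond the spread. Both collagen IV chains were low, Col4a1 at 0.505 ± 0.351 and Col4a2 at 0.457 ± 0.312 CPM per kb, and overlapped. The 3 members that did not pass the filter were low: the collagen I chain Col1a2 had at most 3 counts in any library, and the cross-linking oxidases Lox and Loxl2 at most 1 and 9.

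**Figure D1:**
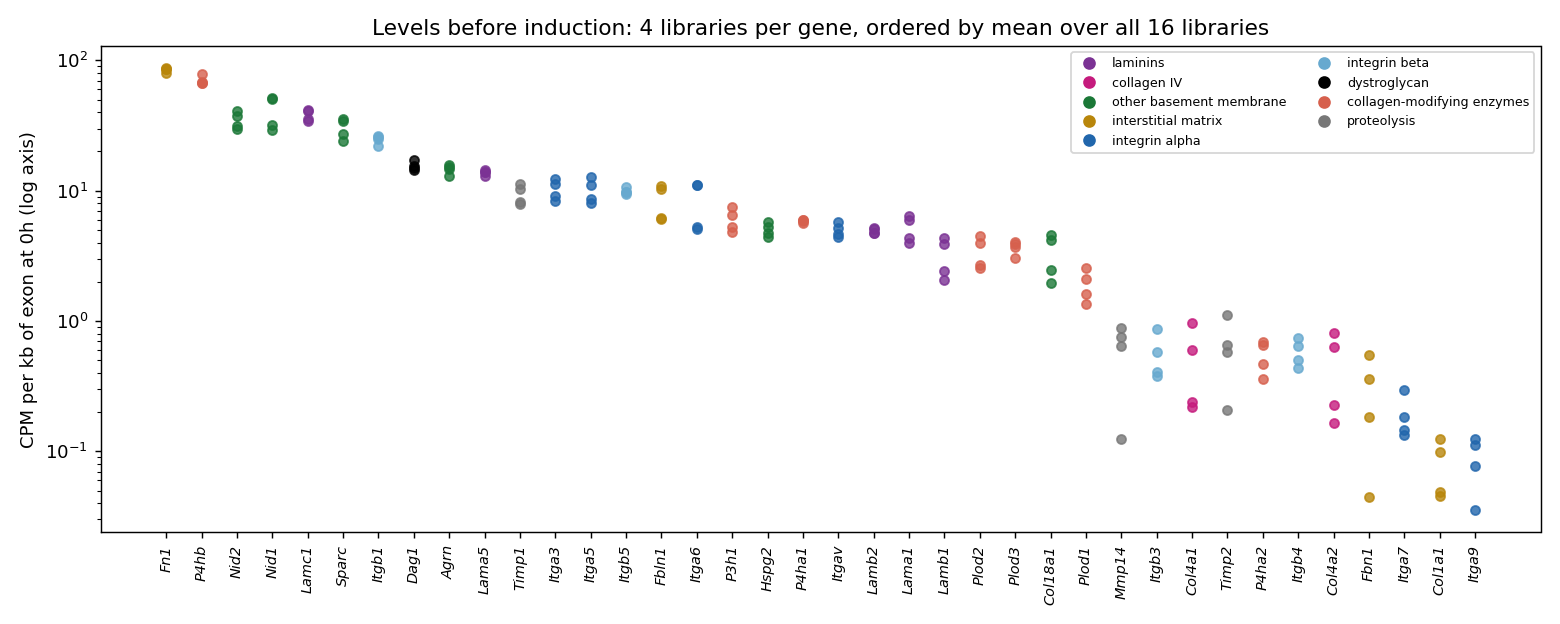
Level of each of the 38 tested members at 0h, in CPM per kb of exon on a log axis, with 1 point for each of the 4 libraries; genes are ordered by their mean over all 16 libraries and coloured by role. Fn1 at 84.7 and P4hb at 70.4 CPM per kb lead, and the collagen IV chains lie near 0.5.

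Each comparison was fitted with edgeR's quasi-likelihood test over all 12215 genes, and a change was called at an adjusted p under 0.05. At 2h, 4 of 38 members were higher than at 0h, where 11.4% of all tested genes were, and 1 was lower, where 9.68% were. Both directions made 13.2% of the members and 21.1% of all tested genes. At 4h, 8 were higher than at 0h, beside 17.2% of all tested genes, and 4 were lower, beside 16.8%; this was 31.6% of the members and 33.9% of all. From 2h to 4h, 3 were higher, beside 3.8% of all tested genes, and 0 lower, beside 3.52%; this was 7.89% of the members and 7.32% of all. Of the lower values in that comparison 2 had an unadjusted p under 0.05, and DESeq2 also called 0. In rev, 5 members were higher than at 4h, beside 7.93% of all tested genes, and 5 lower, beside 8.43%; this was 26.3% of the members and 16.4% of all. Against 0h, 7 were higher in rev, beside 12.4% of all tested genes, and 4 lower, beside 9.86%; this was 28.9% of the members and 22.3% of all. The median log2 fold change of the members was -0.05 at 2h and -0.02 at 4h against 0h, then 0.03 in rev against 4h, beside -0.02, -0.02 and 0.01 for all tested genes. Itga9 at 4h, and Col1a1 at 2h and in rev against 0h, are counted here as higher, but both passed the filter with none (0) of their 0h libraries above its cutoff of 1.54 CPM by library size. Timp2, counted as lower in rev than at 0h, passed with none (0) of its rev libraries above it. In bulk RNA, fewer cells that express a gene and less of its RNA per cell cannot be told apart.

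The call counts depended on how libraries were scaled. With library size alone, and no factor for the share taken by abundant RNAs, the median of all tested genes moved to -0.41 in rev against 4h and to -0.32 in rev against 0h. The members then split as 0 higher and 0 lower at 2h, 3 and 0 at 4h against 0h, 0 and 7 from 4h to rev, and 1 and 1 from 0h to rev. Of all 12215 tested genes, 204 were then higher and 134 lower at 2h, and 554 and 327 at 4h against 0h. From 4h to rev 57 were higher and 1671 lower, and from 0h to rev 105 and 905, so most calls of all genes in rev were lower too. The calls that stood under that scaling were Lamb1, Nid2 and Itga9 at 4h against 0h, Nid2, Sparc, Itgb1, P4hb and Plod2 in rev against 4h, and Col1a1 and Timp2 in rev against 0h; the other calls of members between groups were lost. With the share of abundant RNA as a covariate, the calls lost were Itgb4 (-0.40 in place of -0.67) and Mmp14 at 4h against 0h, Sparc from 2h to 4h, Itgb1 (-0.18 in place of -0.27), Nid2, Plod2 and Lamb2 in rev against 4h, and P4ha1 in rev against 0h. Without a term for clone, 26 of the 41 calls were lost and 0 changed sign.

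**Figure D2:**
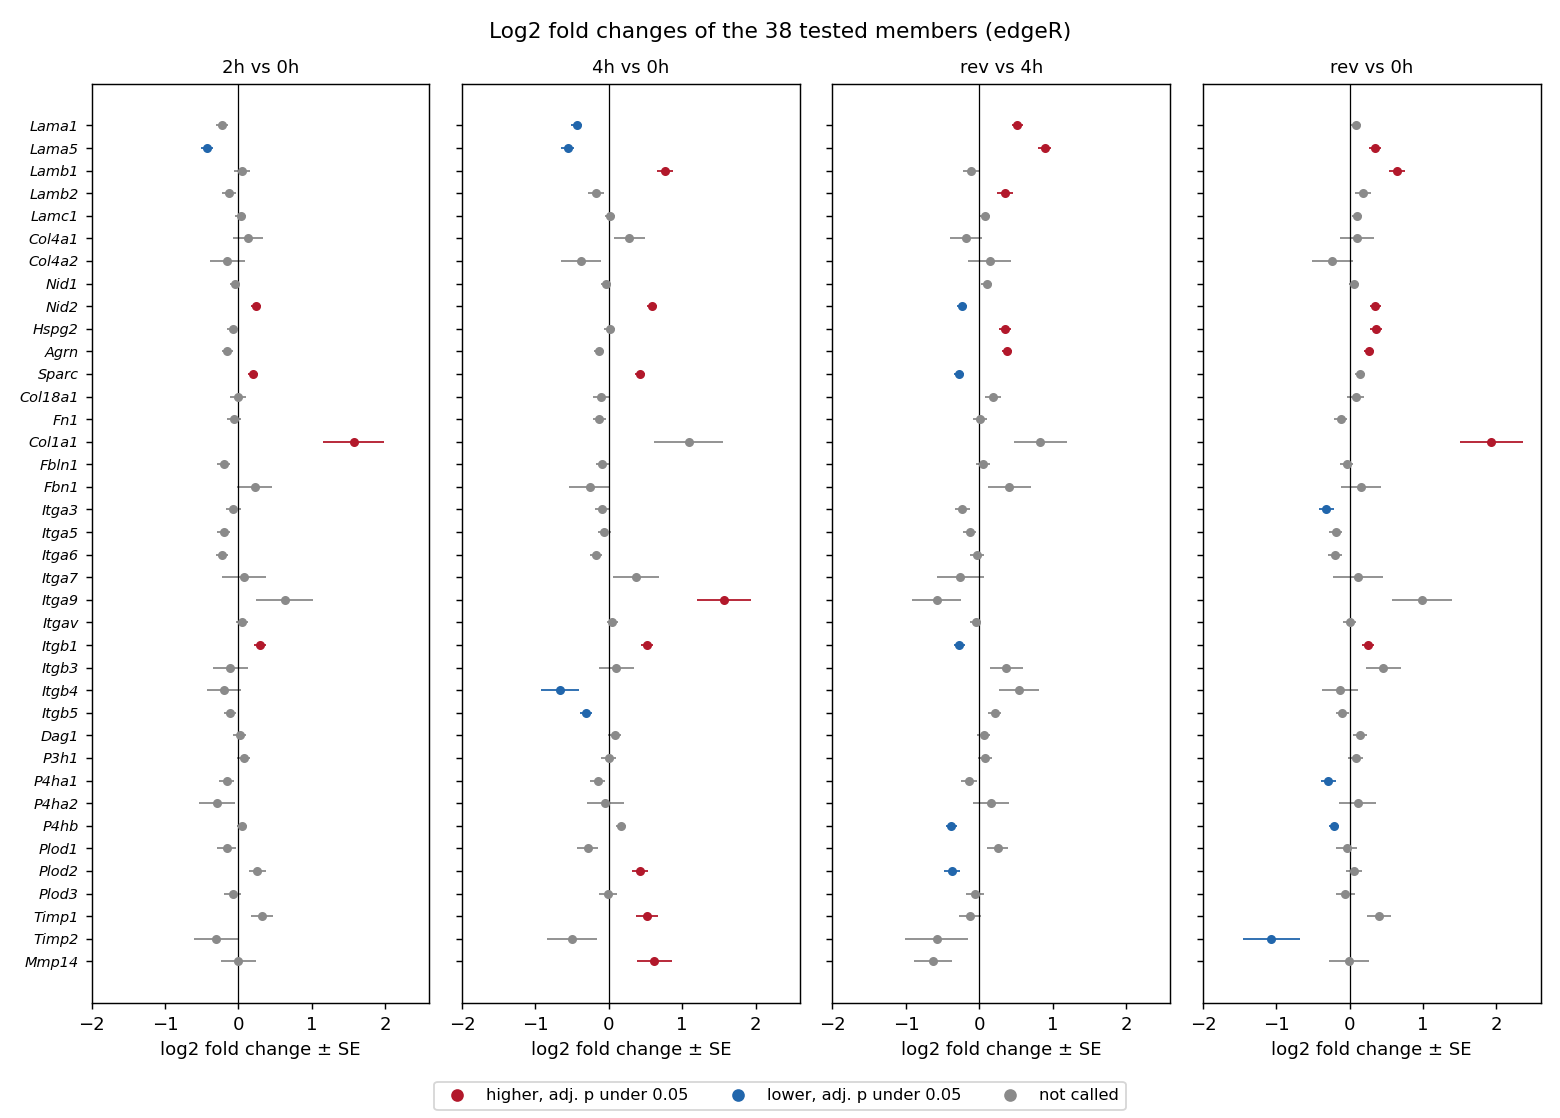
Log2 fold change with its standard error for the 38 tested members in 4 comparisons, from edgeR; red and blue mark members higher and lower at an adjusted p under 0.05. Lama5 moves from -0.56 at 4h against 0h to 0.89 in rev against 4h, and Lamb1 is at 0.76 and -0.11. With library size alone the called values that change sign are Agrn, Hspg2 and Lamb2 in rev against 4h, and Itgb1 and Agrn in rev against 0h.

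On composition-scaled counts the laminin alpha chains Lama1 and Lama5 fell during ERK induction and rose after MEK inhibition, and the beta 1 chain rose and was still above its 0h level in rev. With library size alone the rise of the beta 1 chain at 4h was called, and the other changes in this sequence kept their sign but were not. The 2 clone 4 libraries come first in each group below, and the 2 clone 8 libraries after them. Lama5 (chr2:180176373-180225859, minus strand), a laminin alpha chain found in many adult and embryonic basement membranes, stood at 164, 148, 157 and 159 CPM in the 0h libraries and at 109, 89.8, 125 and 138 in those of 2h. Lama5 was then at 91.1, 101, 123 and 114 CPM at 4h and at 180, 183, 243 and 185 CPM in rev. Every 2h and 4h library was below every 0h library, and every rev library was above them all, with clone 8 replicate 1 of rev highest. The log2 fold change was -0.43 (SE 0.08, edgeR adjusted p = 0.000326) at 2h, -0.56 (SE 0.09, adjusted p = 4.33e-06) at 4h, and 0.89 (SE 0.09, adjusted p = 1.18e-09) in rev against 4h, a 1.86-fold rise; with library size alone the last was 0.48 (adjusted p = 0.122). Against 0h, Lama5 was 1.26-fold higher in rev (log2 0.34, SE 0.08, edgeR adjusted p = 0.00356), and this value was 0.03 with library size alone.

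Lama1 (chr17:67697259-67822647, plus strand), the alpha chain of the main laminin of the early embryo, stood at 38.3, 42.1, 61.6 and 57.2 CPM in the 0h libraries and at 36.4, 36.8, 43.5 and 55.5 in those of 2h. Lama1 was then at 29.6, 30.3, 43.9 and 42.9 CPM at 4h and at 41.9, 42.1, 65.5 and 61.8 CPM in rev. Within each clone the 4h libraries were the lowest of the 4 groups or level with the lowest 2h library, and clone 8 was above clone 4 throughout. It was 1.36-fold lower at 4h than at 0h (log2 -0.44, SE 0.08, edgeR adjusted p = 7.79e-05) and 1.44-fold higher in rev than at 4h (log2 0.52, SE 0.08, adjusted p = 2.43e-05), the latter at 0.09 with library size alone (adjusted p = 0.781). At 2h its log2 value was -0.22 (SE 0.08, edgeR adjusted p = 0.0501), which was called without clone 4 replicate 1 of 0h (-0.23, adjusted p = 0.0395) or clone 8 replicate 2 of 2h (-0.29, adjusted p = 0.0198). From 2h to 4h its log2 value was -0.23, and without clone 8 replicate 1 of 2h it was called at -0.32 (edgeR adjusted p = 0.0179).

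Lamb1 (chr12:31265234-31329644, plus strand), a laminin beta chain that pairs with either alpha chain, stood at 20.6, 24.2, 38.4 and 42.9 CPM in the 0h libraries and at 21.7, 25, 40 and 44.2 in those of 2h. Lamb1 was then at 51.8, 47.2, 58.3 and 52.4 CPM at 4h and at 42.2, 46.9, 54.7 and 53.6 CPM in rev. The 0h and 2h libraries overlapped within each clone, and every 4h library was above every 0h and 2h library. The rise came between 2h and 4h: the log2 fold change was 0.05 (SE 0.11, edgeR adjusted p = 0.79) at 2h against 0h and 0.71 (SE 0.11, adjusted p = 3.34e-05) at 4h against 2h. Over 4 h it rose 1.7-fold (log2 0.76, SE 0.11, edgeR adjusted p = 1.86e-06). After MEK inhibition it was at -0.11 (SE 0.11, edgeR adjusted p = 0.54) against 4h and was still 1.57-fold above 0h (log2 0.65, SE 0.11, adjusted p = 8.74e-05), a value of 0.35 with library size alone (adjusted p = 0.331). Lamb2, the alternative beta chain, ranged from 28.9 to 31.5 CPM at 0h, 24.5 to 28.7 at 2h, 20.1 to 33.7 at 4h and 28.8 to 37.5 in rev, and its 4h and rev libraries overlapped. It was called 1.28-fold higher in rev than at 4h (log2 0.35, SE 0.11, edgeR adjusted p = 0.0195), but at -0.07 with library size alone, and the call was lost without replicate 1 of either clone at 4h or in rev (adjusted p up to 0.124). Lamc1, the gamma chain shared by laminins of these alpha and beta chains, was not called in any comparison, with group means of 315 ± 30.5, 322 ± 44, 320 ± 34.7 and 337 ± 26.3 CPM at 0h, 2h, 4h and rev (SD, n = 4 each).

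**Figure D3:**
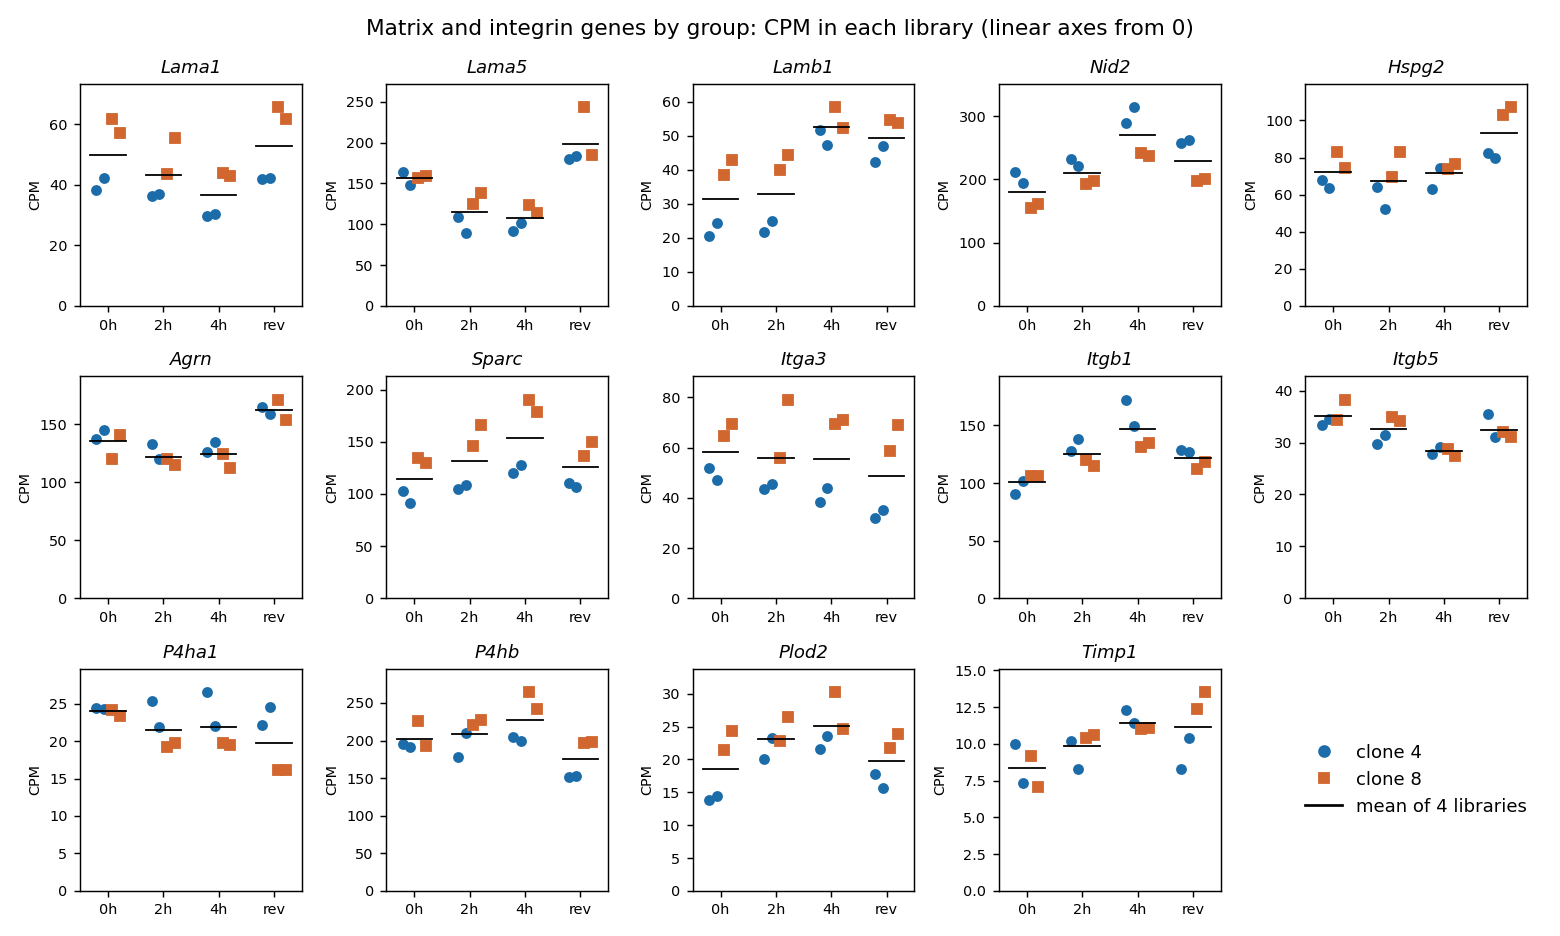
CPM of 14 members in each of the 16 libraries by group, on linear axes from 0; circles are clone 4, squares clone 8, and bars the mean of 4 libraries. Lama5 falls to 107 CPM at 4h and reaches 198 in rev, while Lamb1 reaches 52.4 at 4h and is at 49.4 in rev; values use composition-scaled library sizes, and Agrn and Hspg2 are not higher in rev than at 4h with library size alone.

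Shares of 2 chains within a library do not depend on how libraries are scaled. They were computed from counts per kb and are given as a description. Lamb1 made up 38.4 ± 8.45% of Lamb1 plus Lamb2 at 0h, 41.8 ± 8.29% at 2h, 54.8 ± 6.97% at 4h, then 47.7 ± 4.09% in rev (SD, n = 4 each). Of Lamb1 plus Lamc1 it made up 7.54 ± 1.77% at 0h, 7.66 ± 1.59% at 2h, 12.1 ± 0.995% at 4h, then 10.9 ± 0.655% in rev, so the 4h and rev libraries did not overlap with those of 0h or 2h. Lama5 made up 73 ± 4.57% of Lama5 plus Lama1 at 0h, 69.6 ± 2.16% at 2h, 71.6 ± 2% at 4h, then 76.2 ± 3.21% in rev, and these ranges overlapped.

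**Figure D4:**
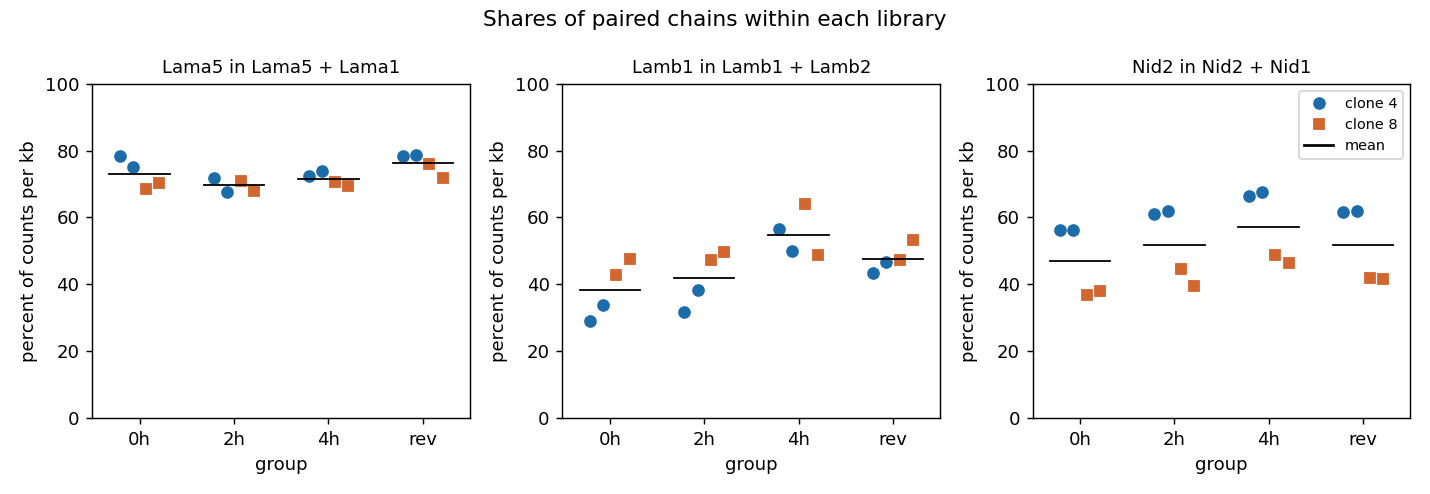
Share of Lama5 in Lama5 plus Lama1, of Lamb1 in Lamb1 plus Lamb2 and of Nid2 in Nid2 plus Nid1, as percent of counts per kb in each library; circles are clone 4, squares clone 8, bars the mean of 4. The Lamb1 share goes from 38.4% at 0h to 54.8% at 4h, and the Nid2 share from 46.9% to 57.3% with clone 4 above clone 8.

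Among the components that connect the networks, nidogen 2 and Sparc rose during induction and fell after MEK inhibition, and the proteoglycans perlecan (Hspg2) and agrin (Agrn) were not called during induction. Nid2 (chr14:19751265-19811787, plus strand), which binds laminin and collagen IV, stood at 212, 194, 155 and 161 CPM in the 0h libraries and at 232, 221, 193 and 198 in those of 2h. Nid2 was then at 289, 314, 242 and 237 CPM at 4h and at 258, 262, 198 and 201 CPM in rev. Within each clone the groups were ordered 0h, 2h, 4h with no overlap, and the rev libraries were level with or above those of 2h and below those of 4h. The log2 fold change was 0.24 (SE 0.07, edgeR adjusted p = 0.00951) at 2h, 0.59 (SE 0.07, adjusted p = 1.39e-08) at 4h, -0.24 (SE 0.07, adjusted p = 0.0114) in rev against 4h and 0.35 (SE 0.07, adjusted p = 0.000271) in rev against 0h. The last was 0.02 with library size alone (edgeR adjusted p = 0.952), and the call in rev against 4h was lost with the share of abundant RNA as a covariate (-0.23, adjusted p = 0.0615). Of its exon bases, 8.45% lie antisense to exons of Rtraf, and reads there cannot be assigned because the strand setting of the counting is not given in the sources used here. Its homologue Nid1 was not called in any of the 5 comparisons, and the Nid2 share of both was 46.9 ± 10.9% at 0h, 51.8 ± 11.5% at 2h, 57.3 ± 11.2% at 4h, then 51.8 ± 11.5% in rev (SD, n = 4 each).

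Sparc (chr11:55394500-55423183, minus strand) stood at 103, 91.5, 134 and 130 CPM in the 0h libraries and at 105, 109, 146 and 166 in those of 2h. Sparc was then at 120, 128, 190 and 178 CPM at 4h and at 110, 107, 136 and 150 CPM in rev. In clone 8 and in clone 4 the 4h libraries were above those of the other 3 groups. It was 1.34-fold higher at 4h than at 0h (log2 0.42, SE 0.07, edgeR adjusted p = 2.23e-05) and 1.21-fold lower in rev than at 4h (log2 -0.28, SE 0.07, adjusted p = 0.00581). Its calls at 2h against 0h (log2 0.20, edgeR adjusted p = 0.0465) and at 4h against 2h (0.22, adjusted p = 0.0496) were near the threshold. The first was lost without any 1 of the 8 libraries but clone 4 replicate 1 of 0h (adjusted p up to 0.21), and the second without any 1 but clone 8 replicate 2 of 2h and clone 4 replicate 1 of 4h (up to 0.185).

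Hspg2 (chr4:137468769-137570630, plus strand) stood at 67.9, 63.6, 82.8 and 74.6 CPM in the 0h libraries and at 64.1, 52.1, 69.4 and 82.8 in those of 2h. Hspg2 was then at 63.2, 74.2, 73.7 and 76.3 CPM at 4h and at 82.7, 79.9, 103 and 107 CPM in rev. The clone 8 libraries of rev were the highest of all 16, and those of clone 4 were above the other clone 4 libraries. Hspg2 was at 0.01 (SE 0.08, edgeR adjusted p = 0.948) at 4h against 0h, and in rev it was 1.28-fold higher than at 4h (log2 0.35, SE 0.08, adjusted p = 0.00224), though at -0.08 with library size alone. Agrn (chr4:156165290-156197488, minus strand), which binds laminin and dystroglycan, stood at 137, 145, 120 and 141 CPM in the 0h libraries and at 133, 120, 120 and 115 in those of 2h. Agrn was then at 126, 135, 124 and 112 CPM at 4h and at 165, 159, 171 and 154 CPM in rev. All 4 rev libraries were above all others. It was at -0.13 (SE 0.07, edgeR adjusted p = 0.179) at 4h against 0h and 1.3-fold higher in rev than at 4h (log2 0.38, SE 0.07, adjusted p = 0.000247), though at -0.04 with library size alone. Against 0h, Hspg2 was at 0.36 (SE 0.08, edgeR adjusted p = 0.00148; 0.03 with library size alone) and Agrn at 0.26 (SE 0.07, adjusted p = 0.00917; -0.06 with library size alone), and the call for Agrn was lost without clone 8 replicate 1 of rev (adjusted p up to 0.0627). With library size alone none (0) of Lama5, Lama1, Agrn and Hspg2 was called higher in rev than at 4h, and relative to the median of all genes their values were 0.89, 0.50, 0.36 and 0.33. Col18a1, a collagen of basement membranes, was not called in any comparison of groups.

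Lama5, Hspg2 and Agrn were called higher together in rev against 4h on composition-scaled counts, while with library size alone none (0) of them was called and Agrn and Hspg2 changed sign; Lamb1 was not called there under either. Lama1 and Lamb2 were also called higher there on composition-scaled counts (0.09 and -0.07 with library size alone), and the window of Lamb2 holds 0 GC boxes, while that of Lama1 was not analysed here. The window of P4hb, called lower there, holds 3 boxes. Among members not called there, P4ha2 has 4, and Itgb5 and Plod1 have 3 each. The window of the other Agrn start has 2. Whether the number of boxes goes with the change was not tested. The promoter windows of Lama5, Hspg2, Agrn and Lamb1 are shown, from 250 bases before to 50 bases after the annotated start, 5′ to 3′ on the strand of the gene, from RefSeq (GRCm38.p6), with each GC box (GGGCGG, on either strand) in capitals. The window of Lama5 is chr2:180225810-180226109 (minus strand, 4 boxes), that of Hspg2 chr4:137468553-137468852 (plus strand, 5 boxes), that of Agrn chr4:156197439-156197738 (minus strand, 12 boxes, the farther upstream of 2 starts) and that of Lamb1 chr12:31265043-31265342 (plus strand, 2 boxes).
Lama5: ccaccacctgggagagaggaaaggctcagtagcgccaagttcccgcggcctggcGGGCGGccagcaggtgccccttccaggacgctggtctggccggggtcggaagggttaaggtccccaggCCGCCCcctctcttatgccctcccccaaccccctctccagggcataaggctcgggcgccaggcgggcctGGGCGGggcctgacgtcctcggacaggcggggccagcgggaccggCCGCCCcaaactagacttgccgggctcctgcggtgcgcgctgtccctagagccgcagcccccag
Hspg2: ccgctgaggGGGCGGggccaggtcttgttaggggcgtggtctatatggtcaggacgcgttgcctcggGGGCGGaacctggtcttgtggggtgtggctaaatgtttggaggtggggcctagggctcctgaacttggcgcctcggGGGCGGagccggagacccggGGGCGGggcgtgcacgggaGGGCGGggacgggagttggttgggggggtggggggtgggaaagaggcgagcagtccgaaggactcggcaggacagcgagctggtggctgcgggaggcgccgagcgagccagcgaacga
Agrn: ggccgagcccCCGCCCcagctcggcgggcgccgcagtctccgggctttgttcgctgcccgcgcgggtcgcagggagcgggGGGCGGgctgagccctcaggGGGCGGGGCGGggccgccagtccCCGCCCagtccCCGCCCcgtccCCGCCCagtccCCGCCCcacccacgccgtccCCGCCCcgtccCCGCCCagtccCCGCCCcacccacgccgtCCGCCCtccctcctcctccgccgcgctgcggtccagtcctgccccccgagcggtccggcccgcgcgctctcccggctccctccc
Lamb1: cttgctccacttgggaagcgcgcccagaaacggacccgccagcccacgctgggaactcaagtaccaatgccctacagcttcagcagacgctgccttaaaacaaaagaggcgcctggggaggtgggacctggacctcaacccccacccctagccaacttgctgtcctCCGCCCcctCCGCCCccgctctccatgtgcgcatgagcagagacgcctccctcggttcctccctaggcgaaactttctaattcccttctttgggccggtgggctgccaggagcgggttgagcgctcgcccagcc
Windows were found for 29 of the 41 members, 35 windows in all. A GC box was in 29 of the 35 (82.9%), against 35.7% of all 32851 windows of the same length. Those windows were not matched to the members in base composition or expression, and some members, such as Agrn, add a second window. The G and C content of member windows ran from 44% (Lamb2) to 83.3% (Agrn), and its part in the GC box share was not tested. The letters CCGGAAG, the core bound by ETS factors, were in 11.4% of member windows and 8.86% of all, GGAATG, a TEAD core, in 17.1% and 14.7%, and TGANTCA, the AP-1 site, in 5.71% and 7.81%, all read on both strands. No CArG box was in the member windows, against 1.63% of all. The AP-1 letters, which read the same on both strands, were in the windows of Itga9 and of a second start of Itga3. These matches are descriptions of letters and not of binding.

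Of the interstitial matrix, Fn1, fibulin 1 (Fbln1) and fibrillin 1 (Fbn1) were not called in any comparison of groups, except that Fbln1 was at -0.27 (edgeR adjusted p = 0.0467) at 2h without clone 8 replicate 1 of 2h. The group means of Fn1 were 989 ± 41.6, 952 ± 178, 911 ± 121 and 915 ± 78 CPM at 0h, 2h, 4h and rev (SD, n = 4 each). Col1a1, a chain of collagen I, was close to the floor, with at most 22 counts in a library. It ranged from 0.298 to 0.815 CPM at 0h, 0.876 to 1.81 at 2h, 0.584 to 1.33 at 4h and 1.6 to 2.7 in rev. The 2h and rev libraries did not overlap with 0h. Col1a1 passed the filter through 5 libraries, 2 of 2h, 1 of 4h and 2 of rev, so its difference from 0h is given as a description. Its log2 value was 1.57 at 2h and 1.93 in rev against 0h, and without clone 8 replicate 2 of 0h the first was 1.34 and no longer called.

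Among the receptors, the integrin beta 1 chain rose while the beta 5 chain fell. Itgb1 (chr8:128685654-128733200, plus strand), the partner of many alpha chains including the laminin receptors alpha 3, 6 and 7, stood at 90.4, 102, 106 and 106 CPM in the 0h libraries and at 128, 138, 120 and 115 in those of 2h. Itgb1 was then at 172, 149, 131 and 135 CPM at 4h and at 129, 127, 112 and 118 CPM in rev. Every 2h, 4h and rev library was above every 0h library, and clone 4 was the higher clone after induction. The log2 fold change was 0.29 (SE 0.08, edgeR adjusted p = 0.00758) at 2h and 0.52 (SE 0.08, adjusted p = 2.55e-06) at 4h, a 1.44-fold rise. From 2h to 4h it was at 0.24 (edgeR adjusted p = 0.0527), and was called with RLE factors (adjusted p = 0.0497), with DESeq2 (0.0435), with the 2 groups alone (0.0299), without the 8 abundant models (0.0479) and without clone 4 replicate 2 of 2h (0.0482). In rev it was at -0.27 (SE 0.08, edgeR adjusted p = 0.0131) against 4h, a call lost without clone 4 replicate 1 of 4h or clone 8 replicate 1 of rev (adjusted p up to 0.0906) and with the share of abundant RNA as a covariate (adjusted p = 0.228). Against 0h it was at 0.25 (SE 0.08, edgeR adjusted p = 0.0222) in rev but at -0.09 with library size alone, and the call was lost without either clone 4 library of 0h or clone 4 replicate 1 of rev (adjusted p up to 0.0894).

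Itgb5 (chr16:33829665-33949338, plus strand), which pairs with alpha V to bind vitronectin, stood at 33.4, 34.6, 34.4 and 38.2 CPM in the 0h libraries and at 29.8, 31.5, 35 and 34.2 in those of 2h. Itgb5 was then at 27.8, 29.2, 28.7 and 27.4 CPM at 4h and at 35.5, 31.1, 32.1 and 31.1 CPM in rev. The 4h libraries were all below every other library. It was 1.24-fold lower at 4h than at 0h (log2 -0.31, SE 0.08, edgeR adjusted p = 0.00407) and at 0.21 (SE 0.09, adjusted p = 0.0896) in rev against 4h. Itgb1 made up 71.4 ± 1.23% of Itgb1 plus Itgb5 counts per kb at 0h, 76.9 ± 2.53% at 2h, 81.8 ± 1.91% at 4h, then 76.5 ± 1.19% in rev (SD, n = 4 each). Itgb4, the partner of alpha 6 in hemidesmosomes, was low at 4.05 ± 0.944 CPM at 0h and 2.62 ± 0.55 at 4h (SD, n = 4 each); it was called at -0.67 (SE 0.26, edgeR adjusted p = 0.0461), and 7.66% of its exon bases lie antisense to another gene. That call was lost without any 1 of 5 of the 8 libraries, namely both of clone 4 and clone 8 replicate 2 at 0h, and both of clone 4 at 4h (adjusted p up to 0.147). Itgb3 was not called in any of these comparisons.

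Of the 6 integrin alpha chains, 1 (Itga3) was called in rev against 0h, 16.7% beside 22.3% of all tested genes, and at 4h the fit called Itga9 alone, described next. None (0) were called at 2h, at 4h against 2h or from 4h to rev, where Itga3 was at -0.23; it was called at -0.30 without clone 8 replicate 2 of rev, at -0.67 with library size alone and at -0.23 with the 2 groups alone. Itga9 had at most 18 counts in a library and ranged from 0.272 to 0.965 CPM at 0h, 0.929 to 1.31 at 2h, 1.76 to 2.47 at 4h and 0.746 to 2.32 in rev. No 4h library overlapped with 0h or 2h, and the log2 value at 4h against 0h was 1.57. Itga9 passed the filter through its 4 libraries of 4h and 1 of rev, so this value is a description and not a test. Itga3 (chr11:95044474-95076801, minus strand), an alpha chain of laminin receptors, stood at 51.9, 47.3, 64.8 and 69.6 CPM in the 0h libraries and at 43.6, 45.5, 56 and 79 in those of 2h. Itga3 was then at 38.2, 44, 69.5 and 71 CPM at 4h and at 32.1, 35, 58.5 and 69 CPM in rev. Clone 8 was above clone 4 in every group, the rev libraries were the lowest of clone 4, and those of clone 8 overlapped with other groups. In rev it was at -0.32 (SE 0.10, edgeR adjusted p = 0.0224) against 0h, a call lost without any 1 of the clone 4 libraries of 0h or rev or clone 8 replicate 1 of rev (adjusted p up to 0.12). Itga5, Itga6, Itga7 and Itgav, and dystroglycan (Dag1), were not called. Itga6 was at -0.27 (edgeR adjusted p = 0.0153) at 2h without clone 4 replicate 1 of 0h, and was also called without clone 4 replicate 2 of 0h or clone 8 replicate 2 of 2h.

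Of the 7 enzymes that modify collagen in the endoplasmic reticulum, 1 was higher at 4h than at 0h (14.3%, beside 33.9% of all tested genes called), while in rev 2 were below their 4h level and 2 below that of 0h (28.6% in each, beside 16.4% and 22.3%). P4hb (chr11:120560298-120573253, minus strand), the protein disulfide isomerase subunit of prolyl 4-hydroxylase, stood at 195, 192, 226 and 193 CPM in the 0h libraries and at 178, 210, 221 and 227 in those of 2h. P4hb was then at 205, 200, 264 and 242 CPM at 4h and at 152, 153, 197 and 198 CPM in rev. Within each clone the rev libraries overlapped with none of those at 4h. At 4h against 0h it was at 0.17 (SE 0.07, edgeR adjusted p = 0.0669). That value was called with DESeq2 (0.18, adjusted p = 0.0485) and with the share of abundant RNA as a covariate (0.21, edgeR adjusted p = 0.04). It was also called without clone 4 replicate 1 of 0h (0.20, edgeR adjusted p = 0.0382). P4hb was 1.31-fold lower in rev than at 4h (log2 -0.38, SE 0.07, edgeR adjusted p = 0.000332). Against 0h it was at -0.21 (SE 0.07, edgeR adjusted p = 0.0366) in rev, which was lost without any 1 of the clone 4 libraries of 0h or rev or clone 8 replicate 1 of 0h (adjusted p up to 0.114). Its catalytic partner P4ha1 (chr10:59323296-59373304, plus strand) stood at 24.4, 24.3, 24.1 and 23.4 CPM in the 0h libraries and at 25.4, 21.9, 19.2 and 19.7 in those of 2h. P4ha1 was then at 26.5, 22, 19.7 and 19.5 CPM at 4h and at 22.2, 24.5, 16.2 and 16.2 CPM in rev. In clone 8 all later libraries lay below those of 0h, and in clone 4 the groups overlapped. P4ha1 was at -0.29 (SE 0.10, edgeR adjusted p = 0.0415) in rev against 0h, a call lost without either clone 8 library of 0h, either of rev, or clone 4 replicate 1 of rev (adjusted p up to 0.169).

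Plod2 (chr9:92542223-92608428, plus strand), a lysyl hydroxylase, stood at 13.9, 14.5, 21.5 and 24.4 CPM in the 0h libraries and at 20.1, 23.2, 22.8 and 26.4 in those of 2h. Plod2 was then at 21.6, 23.6, 30.2 and 24.7 CPM at 4h and at 17.8, 15.6, 21.7 and 23.9 CPM in rev. In clone 4 the 2h and 4h libraries were all above 0h, and in clone 8 the groups lay closer together. It was 1.35-fold higher at 4h than at 0h (log2 0.43, SE 0.11, edgeR adjusted p = 0.00211) and 1.29-fold lower in rev than at 4h (log2 -0.37, SE 0.11, adjusted p = 0.0187). The latter was lost without clone 4 replicate 2 or clone 8 replicate 1 of either group (adjusted p up to 0.0711), and 6.42% of its exon bases lie antisense to another gene model. P3h1, P4ha2, Plod1 and Plod3 were not called.

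Of the proteolysis genes, Timp1 (chrX:20870166-20874735, plus strand), an inhibitor of matrix metalloproteinases, stood at 10, 7.31, 9.17 and 7.06 CPM in the 0h libraries and at 10.2, 8.32, 10.4 and 10.6 in those of 2h. Timp1 was then at 12.3, 11.4, 11 and 11.1 CPM at 4h and at 8.31, 10.4, 12.4 and 13.5 CPM in rev. All 4h libraries were above all 0h libraries. It was 1.44-fold higher at 4h (log2 0.52, SE 0.15, edgeR adjusted p = 0.00657) and at -0.13 (SE 0.15, adjusted p = 0.605) in rev against 4h. In rev against 0h it was at 0.40 (SE 0.16, edgeR adjusted p = 0.0662). That value was called without clone 4 replicate 1 of 0h (0.49, edgeR adjusted p = 0.0274) or of rev (0.55, adjusted p = 0.0197). The membrane metalloproteinase Mmp14 ranged from 0.746 to 5.24 CPM at 0h and 3.5 to 7.98 at 4h, which overlapped. Its call at 4h (log2 0.62, SE 0.24, edgeR adjusted p = 0.0486) was lost without any 1 of 5 libraries, clone 4 replicate 2 and clone 8 replicate 1 of 0h, both clone 4 libraries of 4h and clone 8 replicate 1 of 4h (adjusted p up to 0.249, log2 0.35 at the lowest). Timp2 ranged from 0.815 to 4.34 CPM at 0h and 0.426 to 2.7 in rev. Timp2 passed the filter through 3 libraries of 0h, 2 of 2h and 2 of 4h, so its log2 value of -1.07 in rev against 0h is a description; it was no longer called without clone 4 replicate 2 or clone 8 replicate 1 of 0h, or replicate 1 of either clone in rev.

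The clones differed in the level of many members, a contrast that the design carries in every group. Over the 4 groups, 21 of 38 members were higher in clone 8, beside 16.1% of all tested genes, and 5 lower, beside 14%. Both directions made 68.4% of the members and 30.1% of all tested genes. The 2 chains of collagen IV were both higher in clone 8, Col4a1 by a log2 difference of 1.15 (SE 0.16, edgeR adjusted p = 4.36e-07) and Col4a2 by 1.00 (SE 0.19, adjusted p = 0.000106). Col4a1 stood at 1.63, 1.79, 4.5 and 7.16 CPM in the 0h libraries and at 3.5, 2.19, 5.15 and 6.11 in those of 2h. Col4a1 was then at 3.3, 2.92, 6.27 and 6.58 CPM at 4h and at 2.77, 3.04, 5.3 and 5.86 CPM in rev. Col4a2 stood at 1.09, 1.49, 4.18 and 5.35 CPM in the 0h libraries and at 1.81, 3.07, 3.29 and 4.05 in those of 2h. Col4a2 was then at 1.65, 1.52, 3.99 and 2.37 CPM at 4h and at 2.24, 2.17, 2.65 and 3.16 CPM in rev. For Col4a1 the clones did not overlap within any group, nor did they for Col4a2. Counts in a library were low, 5 to 86 for Col4a1 and 4 to 57 for Col4a2. The other members higher in clone 8 by at least 0.5 were Fbn1 (1.42), Timp2 (1.31), Mmp14 (1.00), Nid1 (0.82), Itga6 (0.78), Itga3 (0.69), Lamb1 (0.55), Lama1 (0.53) and Plod1 (0.50). Timp2 is counted among the 21, but its clone 4 means were only 1.37, 0.677 and 0.756 CPM at 2h, 4h and rev. The filter cutoff was 1.54 CPM by library size, so the difference of Timp2 between the clones is a description. The 5 lower in clone 8 were Col18a1 at -1.13 (SE 0.08, edgeR adjusted p = 4.72e-14), Itgb3 at -1.03, Fbln1 at -0.65, Nid2 at -0.32 and P4ha1 at -0.29. For Fbn1, 20.1% of the exon bases lie antisense to another gene model. With library size alone the median of all tested genes between the clones moved from -0.01 to -0.26, 8 members were higher in clone 8 and 7 lower, and 6 of the 26 (Lama5, Lamc1, Fn1, Dag1, P3h1 and P4hb) took the opposite sign, at -0.11 to -0.00. The share of all tested genes called between the clones under that scaling is not given here.

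**Figure D5:**
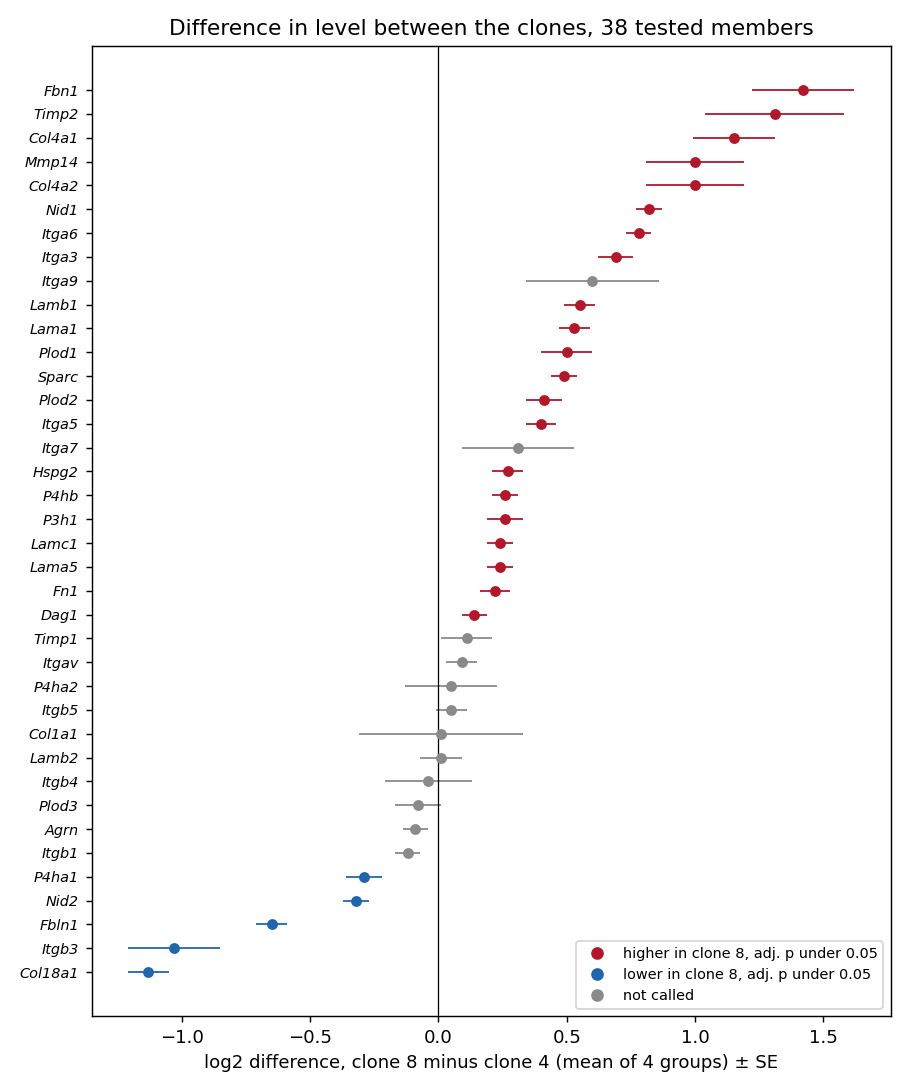
Log2 difference in level between clone 8 and clone 4, averaged over the 4 groups, with its standard error, for the 38 tested members; red marks members higher and blue members lower in clone 8 at an adjusted p under 0.05. Col4a1 at 1.15 and Col4a2 at 1.00 lie among the highest, and Col18a1 at -1.13 is the lowest.

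Col4a1 and Col4a2 are transcribed away from each other on chromosome 8, and their promoter windows are shown because both genes were higher in clone 8. Their annotated starts lie 21 bases apart, and the windows (RefSeq, GRCm38.p6) share 78 bases, chr8:11312777-11312854, which are in capitals on the strand of each gene. The window of Col4a1 is chr8:11312777-11313076 (minus strand) and that of Col4a2 chr8:11312555-11312854 (plus strand).
Col4a1: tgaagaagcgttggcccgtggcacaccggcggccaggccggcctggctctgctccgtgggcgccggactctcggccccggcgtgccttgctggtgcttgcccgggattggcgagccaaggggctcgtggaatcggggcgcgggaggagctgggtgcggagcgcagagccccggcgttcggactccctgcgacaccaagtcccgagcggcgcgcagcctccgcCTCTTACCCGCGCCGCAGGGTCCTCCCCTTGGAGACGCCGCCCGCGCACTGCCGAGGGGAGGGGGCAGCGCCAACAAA
Col4a2: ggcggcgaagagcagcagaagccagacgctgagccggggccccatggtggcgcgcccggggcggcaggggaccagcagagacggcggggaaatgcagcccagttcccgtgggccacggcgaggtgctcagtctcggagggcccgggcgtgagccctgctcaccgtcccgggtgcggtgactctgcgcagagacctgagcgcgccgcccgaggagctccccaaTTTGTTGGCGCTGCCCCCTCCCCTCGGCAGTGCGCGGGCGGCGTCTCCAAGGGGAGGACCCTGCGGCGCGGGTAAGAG
The exons of the genes overlap by 22 bases on opposite strands, 0.295% of those of Col4a1.

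The response to induction was also compared between the clones. No member (0 of 38) was called for a different response at 2h, at 4h or in rev against 4h, where 0.0901%, 0.311% and 0.00819% of all tested genes were; 4, 6 and 3 members had an unadjusted p under 0.05, and RLE scaling and library size alone also gave 0. The closest was Lamb1 at 4h against 0h, whose log2 fold change was 1.13 in clone 4 and 0.44 in clone 8, computed from CPM with 0.5 added. The modelled difference was -0.68 (SE 0.17, edgeR adjusted p = 0.0669). It was called without clone 8 replicate 1 of 0h (-0.75, edgeR adjusted p = 0.0467) or without clone 4 replicate 2 of 4h (-0.73, adjusted p = 0.0394).

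The proteins that couple integrins to the cytoskeleton were examined beside the members, as a list of 25 genes of which 21 were tested. At 2h 8 rose and 0 fell, at 4h 9 rose and 1 fell, and in rev 0 rose and 4 fell against 4h. These were 38.1%, 47.6% and 19% of the list, beside 21.1%, 33.9% and 16.4% of all tested genes, so the share from 4h to rev was near that of all genes. The median log2 fold change was 0.15, 0.13 and -0.06 in turn, beside -0.02, -0.02 and 0.01 for all tested genes. Zyx, zyxin of focal adhesions, went from 3.27 ± 1.56 CPM before induction to 12.9 ± 0.848 at 2h, 19.4 ± 0.761 at 4h and 9.86 ± 1.21 in rev (SD, n = 4 each). Its log2 fold change was 2.54 (SE 0.17, edgeR adjusted p = 7.98e-14) at 4h against 0h and was -1.03 (SE 0.15, adjusted p = 3.99e-06) from 4h to rev. Tns3, a tensin that binds integrin tails, went from 76.5 ± 4.3 CPM before induction to 178 ± 9.78 at 4h and 140 ± 4.62 in rev (SD, n = 4 each). Talin (Tln1), vinculin (Vcl), kindlin 2 (Fermt2), Actn4, Flna and Arhgef7 were also called higher at both times. At 4h Tns3 was at 1.22 and Itgb1 at 0.52 on the log2 scale. With library size alone none (0) of these calls at 2h, 4h or in rev against 4h took the opposite sign, and 1, 5 and 4 passed the threshold in turn. In rev against 0h, 9 adaptors were called higher and 1 lower (47.6%, beside 22.3% of all tested genes), but with library size alone 1 was higher and 1 lower, and Tln1 and Flna took the opposite sign.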

How the data were processed

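RNA of 16 libraries was depleted of ribosomal RNA before library preparation, per the labels' protocols. The authors deposited raw read counts per gene, all of them integers, with reads aligned by STAR 2.5.3a to mm10 per the submitters' processing notes. The counting tool, annotation and strand setting are not given in the sources used here. Symbols, positions and exon lengths came from GENCODE M21 (52489 of 52636 identifiers matched), and promoter windows from RefSeq GRCm38.p6.

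The fits used edgeR 4.0.16 in R 4.3.3 (limma 3.58.1 loaded): filterByExpr over the groups, TMM factors, and a quasi-likelihood fit of group and clone to all 16 libraries, with two-sided contrasts and Benjamini-Hochberg adjustment over 12215 genes at 0.05. Differences of the clones came from a model with a term for each group and clone. SE was derived from the fold change and F. On simulated counts of 11846 genes, 89% of 200 genes changed 2-fold were recovered in 4h against 0h, with 10 false calls; at 1.41-fold in rev against 4h, 48.5%. No libraries held identical counts.

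The members and lists were chosen with earlier results of these data known. Values of every library were written out for members among the 4 with the largest change in each direction in 2h, 4h or rev against 0h or rev against 4h, at an adjusted p under 0.05 and a mean of at least 5 CPM; the other called members are given by range. Alternatives were RLE factors, library size alone, other filters, no clone term, a replicate block, the 2 groups alone, DESeq2 1.42.0, removal of the 8 most abundant models or their share as a covariate, and each library left out.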

Additional observations from a re-analysis of the deposited data

Results flagged for a closer look

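In 172 sets of 4 libraries (152 of a member's level in a group and 20 of a chain share in a group), 5 held a library far from the other 3, 2.91% where chance gives about 1 in 20 (5%). Lama5 was at 243 CPM in clone 8 replicate 1 of rev, with the others at 180 to 185; without that library its log2 fold change in rev against 0h was 0.26 (edgeR adjusted p = 0.0399) in place of 0.34. P4hb was at 226 CPM in clone 8 replicate 1 of 0h, with the others at 192 to 195. P3h1 was at 20.8 CPM in clone 4 replicate 2 of 4h, with the others at 23.4 to 23.9. Itga9 was at 0.929 CPM (11 counts) in clone 8 replicate 1 of 2h, against 1.28 to 1.31, and Itgb4 at 6.31 CPM (14 counts) in clone 8 replicate 2 of rev, the library with the largest share of abundant RNA, against 2.98 to 3.52.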

How the results depend on the processing

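Of the 41 calls, 0 were lost with RLE factors, with genes of at least 1 CPM or without the 8 abundant models, 5 with no filter, 3 of 37 with the 2 groups alone, 4 with DESeq2, 8 with the share as a covariate and 14 on leaving out some library. With library size alone 26 were lost and 5 reversed. Counts then were 0 higher and 0 lower at 2h, 3 and 0 at 4h, 0 higher at 4h against 2h, 0 higher in rev against 4h, 1 and 1 in rev against 0h, and 15 for the clones. The counts of all tested genes at 2h, at 4h and in rev under that scaling are given above. Values of opposite sign were Itga3 0.00 (4h against 0h) and 0.06 (4h against 2h); Itgb5 -0.21, Agrn -0.04, Hspg2 -0.08 and Lamb2 -0.07 (rev against 4h); and Itgb1 -0.09, Sparc -0.19, Lama1 -0.25, Agrn -0.06 and Plod2 -0.25 (rev against 0h). Without a clone term counts were 2 higher at 2h, 5 and 2 at 4h, 0 higher at 4h against 2h, 2 and 1 from 4h to rev, 2 and 0 from 0h to rev, with Hspg2 at -0.01 at 4h. With no filter 2 were lower in rev against 0h, with Agrn at -0.00 and P4ha1 at -0.02 at 4h against 2h. With the 2 groups alone 2 were higher at 2h and 2 lower in rev against 0h, with P4ha1 at -0.00 at 4h against 2h; DESeq2 also gave 2 lower in rev against 0h. With the share as a covariate 3 were lower at 2h and 2 lower in rev against 4h, with Lamb1 at -0.00 at 2h and 0.14 in rev against 4h, Hspg2 at -0.00 at 4h, and Itga3 at 0.01 and P4ha1 at -0.04 at 4h against 2h. The cause of these shifts was not tested.

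Leaving out each library gave ranges of 1 to 3 lower at 2h, 0 to 1 lower at 4h against 2h, 3 to 6 lower in rev against 4h, 0 to 3 lower in rev against 0h, and 0 to 1 for the difference of the clones at 4h. Uncalled values crossed 0: Lamb1 (-0.06 to 0.17), P4hb (-0.02 to 0.08) and Itga3 (-0.18 to 0.05) at 2h; Hspg2 (-0.07 to 0.05) at 4h; Agrn (-0.00 to 0.06), Itga3 (-0.14 to 0.09) and P4ha1 (-0.05 to 0.07) at 4h against 2h; and Timp1 (-0.22 to 0.04) in rev against 4h. Same-numbered libraries of a clone were correlated at -0.319 to 0.188 over 12 pairs of groups (mean 0.00985, 4 above 0.1). For 0h with 2h, 0h with 4h and 2h with 4h the values were 0.188, 0.134 and 0.166 in clone 8. In clone 4 they were 0.108, -0.319 and -0.166. With 2 libraries for each group and clone, this check does not settle whether the numbers pair the libraries. With a replicate block 3 were higher and 1 lower at 2h, 7 and 3 at 4h, 2 and 0 at 4h against 2h, 5 and 5 from 4h to rev, 7 and 3 from 0h to rev. The block lost 5 of the 41 calls, Sparc at 2h and at 4h against 2h, Itgb4 and Mmp14 at 4h, and Timp2 in rev against 0h. Depth limits Col1a1, Itga9, Itgb4, Timp2 and Mmp14, with 22, 18, 45, 42 and 59 counts at most. It also limits Itga7, P4ha2, Itgb3 and Col4a2, with 24, 40, 57 and 57 at most, and with them the clone differences of Itgb3 and Col4a2.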

Other observations

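Of 41 other matrix genes 18 passed the filter on low counts; 2 were higher and 0 lower at 2h, and 3 were higher and 3 lower at 4h than at 0h. These were 11.1% and 33.3% of the list, beside 21.1% and 33.9% of all tested genes. The 2 at 2h were the matricellular genes Ccn1, at 3.53 ± 0.62 CPM at 0h and 13.6 ± 2.46 at 2h, and Ccn2, at 19.5 ± 2.88 and 65.6 ± 13.6 (SD, n = 4 each). At 4h Ccn1 was at 7.56 ± 0.641 CPM and Ccn2 at 29.2 ± 6.51; both were lower than at 2h, by log2 values of -0.84 and -1.14 (edgeR adjusted p = 0.000757 and 7.73e-10). From 2h to 4h 1 gene of this list rose and 4 fell (27.8%, beside 7.32% of all tested genes). The counts with library size alone were 1 higher and 0 lower at 4h against 0h, and 0 and 1 from 2h to 4h. Of 36 other matrix enzymes 20 were tested; 1 rose and 1 fell at 2h, 3 rose and 1 fell at 4h, and 1 rose and 1 fell in rev against 4h (10%, 20% and 10%, beside 21.1%, 33.9% and 16.4% of all); with library size alone these were 1 and 0, 3 and 0, and 0 and 2. Of the 3 at 4h, Loxl4 passed the filter through its 4 libraries of 4h and 1 of each other group, and Plaur with none (0) of its 0h libraries above the cutoff. Plaur, the receptor of the protease urokinase, went from 0.715 ± 0.425 CPM before induction to 7.79 ± 1.41 at 2h, 17.4 ± 4.02 at 4h and 3.3 ± 0.828 in rev (SD, n = 4 each). Its log2 value of 4.40 at 4h against 0h is therefore a description, and its log2 fold change was -2.50 (SE 0.20, edgeR adjusted p = 1.53e-11) in rev against 4h. Of 17 other integrin genes 4 were tested, and 1, Itgal, was called, at -0.58 (edgeR adjusted p = 0.0461) at 4h against 0h (25%, beside 33.9% of all tested genes); with library size alone 0 were called there.

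Among the fibroblast markers, Twist1, a transcription factor, went from 1.53 ± 0.387 CPM before induction to 7.98 ± 1.89 at 4h, and Pdgfrb, a growth factor receptor, from 8.05 ± 2.59 to 2.18 ± 0.799 (SD, n = 4 each), while Postn, Dcn and Prrx1 were at 0 in all libraries.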
